A study of Oryza sativa with 15 samples.

Results

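The genes described here are 3 rice loci whose RNA in the endosperm came almost entirely from the mother's alleles: LOC_Os04g10260, annotated as a basic region leucine zipper (bZIP) gene, LOC_Os05g34310, annotated as a no apical meristem (NAC) gene, and LOC_Os05g23950, annotated as a TRAF-type zinc finger gene. They are 3 of 13828 loci with allele counts, and they were chosen by locus name because their maternal shares were high in these same data. Those shares are therefore given as a description, with no test, and nothing is supported by them. The SNP counts of each locus were summed per cross. In the annotation only the first 2 names belong to families of DNA-binding regulators. The text for LOC_Os05g23950 does not call it a transcription factor, so it is called a zinc finger gene below.

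Allele-specific RNA counts came from endosperm of reciprocal hybrids between japonica and indica rice, collected 5 days after fertilization with a pipette to keep maternal tissue out. LR has the japonica line Liuqianxin-A as mother and the indica line Rongfeng-B as father, and RL has Rongfeng-A as mother and Liuqianxin-B as father. YW has the japonica line Yu6-A as mother and the indica line Wufeng-B as father, and WY has Wufeng-A as mother and Yu6-B as father. All A lines are cytoplasmic male sterile and all B lines are their fertile maintainers with the same nuclear genome, so every mother here carried sterile cytoplasm and the cytoplasm changed together with the direction of the cross. All mothers were emasculated and moved to a growth chamber, and each replicate was a pool of 20 to 30 endosperms. The deposited columns pool the replicates (3 libraries each of LR and RL, 2 each of YW and WY), so each value below is 1 pooled value per cross with counting error only and no spread between replicates. Inbred Liuqianxin and Rongfeng libraries, 5 in all, were not analysed here.

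Imprinted genes are transcribed mainly from the allele of a given parent. The endosperm of flowering plants is a main site of imprinting, and because its central cell contributes a double genome, an allele pair without parental bias is read at 2 maternal to 1 paternal, a maternal share of 66.7%. Maternal expression in endosperm is commonly linked to removal of DNA methylation from the genome of the central cell before fertilization. bZIP proteins bind DNA as dimers through a basic region next to a leucine zipper, and in cereal endosperm some of them activate storage protein genes. NAC proteins form a plant-specific family of transcription factors with roles in development, in stress responses and, for some rice members, in grain filling. TRAF-type zinc fingers are domains named after adaptor proteins of animal receptor signalling.

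Depth was similar across crosses, with 29714227 allele reads in LR and 34433249 in RL, then 29149713 in YW and 29302004 in WY, summed over SNPs. Loci whose counts in each cross of a set averaged 10 or more per library, hereafter tested loci, came to 10867 for the set LR-RL and 11443 for YW-WY, of which 9753 were in both. The median maternal share of tested loci was 67.1% in LR and 63.8% in RL, then 75.1% in YW and 62.9% in WY, so the typical locus of YW lay above 2:1. Endosperm storage protein loci (glutelins and prolamins, 23 tested in LR-RL and 21 in YW-WY) took 10.3% of the reads in LR and 22.9% in RL, then 25% in YW and 24.8% in WY. Of the markers of maternal seed tissue, the nucellus gene OsMADS29 and the pericarp gene Rc had no SNP in these tables. The 2 tested loci of the green pericarp list in LR-RL, both for the small subunit of Rubisco, had maternal shares from 46.7% to 61.3% in LR and from 71.6% to 78.3% in RL. The 3 in YW-WY had 50.3% to 70.2% in YW and 67.6% to 74.7% in WY, and no marker of this list was called maternal in either set. The part of maternal tissue in the members' shares was not tested beyond these values.

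The bZIP gene LOC_Os04g10260 lies on chromosome 4, with SNPs from 5539589 to 5545454 in the coordinates of the tables. No source used here names their genome build. It had 5712 maternal and 6 paternal reads in LR, and 3331 maternal and 3 paternal reads in RL. In YW it had 5310 maternal and 22 paternal reads, and in WY 3526 and 3. The paternal share was thus 0.105% in LR (between 0.0481 and 0.229 by the Wilson 95% interval) and 0.09% in RL (between 0.0306 and 0.264), then 0.413% in YW (between 0.273 and 0.624) and 0.085% in WY (between 0.0289 and 0.25). The share was highest in YW, although the typical locus of YW was shifted the other way, toward the mother. The YW interval began at 0.273, just above the largest upper limit of the other crosses, 0.264 in RL. These intervals cover counting error only, and a read that spans several SNPs is counted at each, which makes them too narrow. The difference between crosses was not tested, nor was the part of sequencing error in these few paternal reads.

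The NAC gene LOC_Os05g34310 lies on chromosome 5, with SNPs from 20308609 to 20310229. It had 7930 maternal and 28 paternal reads in LR and 11061 and 38 in RL, and 12700 and 32 in YW and 12561 and 51 in WY. Its paternal share was 0.352% in LR (between 0.244 and 0.508) and 0.342% in RL (between 0.25 and 0.47), then 0.251% in YW (between 0.178 and 0.355) and 0.404% in WY (between 0.308 and 0.531). All 4 intervals overlapped, which does not show that the shares were equal, and the crosses were not tested against each other. In LR and WY the NAC gene had a larger paternal share than the bZIP gene, with intervals that did not overlap. That difference rested largely on the SNP C20308917T, described below. Without it the NAC share was 0.235% in LR and 0.161% in WY, and the WY value lay inside the bZIP interval. The difference between the genes was not tested, nor was the part of sequencing error in either share. In RL and YW the intervals of the 2 genes overlapped, and in YW the bZIP gene had the larger share. NAC genes have close relatives in the genome, and reads shared with such copies could not be told apart from reads of this locus.

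The zinc finger gene LOC_Os05g23950 lies on chromosome 5, with SNPs from 13783251 to 13783342, and was the least covered of the genes. Its reads numbered 83 maternal and 0 paternal in LR, 239 and 2 in RL, 149 and 0 in YW and 159 and 0 in WY. A count of 0 allows a paternal share of up to 3.61% in LR, 2.01% in YW and 1.89% in WY, and in RL the share was 0.83% (between 0.228 and 2.97). Paternal shares as low as those of the bZIP and NAC genes would not have been detectable in LR, YW or WY at this depth.

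**Figure D1:**
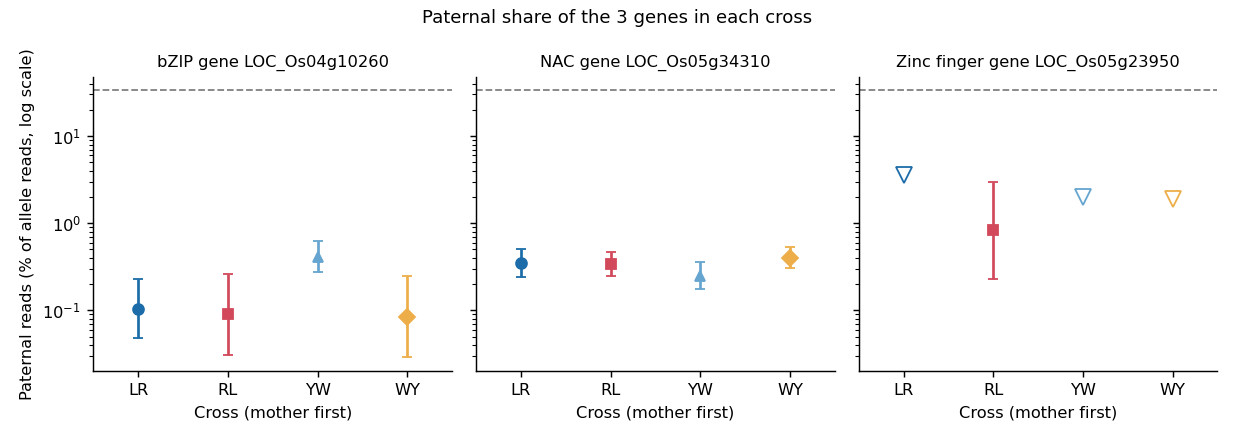
Paternal reads as a percentage of allele reads (log scale) for each gene in LR, RL, YW and WY, 1 pooled value per cross. Filled symbols carry Wilson 95% intervals, open triangles mark the limit that a count of 0 allows, and the dashed line is the paternal share without parental bias. Every value and limit lies far below the line, the bZIP gene has its highest value in YW, and the zinc finger gene has limits between 1.89% and 3.61% in LR, YW and WY.

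By the call rule used here, with an adjusted p under 0.05 (exact binomial test against 2:1) and at least 5 times from 2:1 on the same side in both crosses, a locus is strongly maternal at a share of at least 90.9%. Over all tested loci the rule called 0.847% maternal in LR-RL, 0.97% in YW-WY and 0.718% in both. The 3 genes are among these loci by the way they were chosen, so the rule is no test of them and serves below for other loci. With a pseudocount of 0.5 for either allele, the log2 departure of the maternal to paternal ratio from 2:1 ran from 6.88 to 8.98 across crosses at the bZIP gene, from 6.93 to 7.61 at the NAC gene and from 5.58 to 7.32 at the zinc finger gene. For the last gene these values are set by its depth wherever no paternal read was seen.

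The SNPs of the genes show where in each transcript the counts arose. At the bZIP gene the tables list 18 SNPs, all 18 with the same letters in both cross sets, between positions 18 and 1266 of the transcript model. Positions in the model fall as genomic positions rise, so the model runs on the minus strand. Between transcript positions 1104 and 1179 the genome adds 4441 bases, and between 718 and 1104 it adds 176, which places at least 1 intron in each interval. The NAC gene has 5 SNPs in LR-RL and 4 of the same in YW-WY, from positions 14 to 1213, likewise on the minus strand, with 107 and 314 added bases between positions 25 and 376 and between 376 and 905. The zinc finger gene has 3 SNPs, at positions 33, 98 and 124, with no added base between them. They span 91 bases, so the same fragments can be counted at several of them. The annotation in the tables does not separate coding from untranslated bases.

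The few paternal reads of the bZIP gene were scattered. In LR 5 of the 18 SNPs had any paternal read, in RL 2, in YW 13 and in WY 2. No SNP held more than 4 of the 22 paternal reads in YW, and the most at any SNP of the other crosses was 2. The highest paternal share at any SNP was 1.02% in LR and 0.935% in RL, then 1.01% in YW and 0.766% in WY, so the maternal share was at least 99.0% at every SNP of this gene. Reads per SNP lay between 98 and 531 in LR and between 48 and 285 in RL, and between 116 and 417 in YW and 56 and 261 in WY.

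At the NAC gene the paternal reads were uneven along the transcript. The SNP C20308917T (the base listed as reference, the position on chromosome 5 and the other base, as the tables give them), at transcript position 905, had 15 paternal reads among 2432 in LR and 31 among 3668 in RL, with 14 among 4275 in YW and 38 among 4562 in WY. It held 53.6% of the gene's paternal reads in LR and 81.6% in RL, then 43.8% in YW and 74.5% in WY. The share there was 0.617% in LR (between 0.374 and 1.02) and 0.845% in RL (between 0.596 and 1.2), and 0.327% in YW (between 0.195 and 0.549) and 0.833% in WY (between 0.607 and 1.14). With both indica mothers, this SNP was thus above 0.8% paternal.

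At C20309760T, transcript position 376, the order of the crosses was the other way round. The paternal share was 0.355% in LR (10 of 2820 reads, between 0.193 and 0.652) and 0.0278% in RL (1 of 3600, between 0.0049 and 0.157). It was 0.24% in YW (12 of 5003, between 0.137 and 0.419) and 0.061% in WY (3 of 4918, between 0.0207 and 0.179). Both japonica mothers gave the higher paternal share at this SNP, and in LR-RL the intervals did not overlap. The base counted as paternal changes with the direction of the cross, here and at C20308917T. The mother and the base counted therefore cannot be told apart. At G20310218A, position 25, LR had 0 paternal reads among 2005, allowing up to 0.15%, and RL had 2 among 2553. YW had 5 among 2598 and WY 3 among 2292. At A20308609G, position 1213, LR had 3 among 675 and RL 4 among 981, while YW had 1 among 856 and WY 7 among 840. Apart from C20308917T the paternal share of the gene was 0.235% in LR and 0.0942% in RL, then 0.213% in YW and 0.161% in WY. These differences between SNPs were not tested, because they use the same allele counts as the choice of the genes. The part of miscalled bases in these paternal reads was not tested either.

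**Figure D2:**
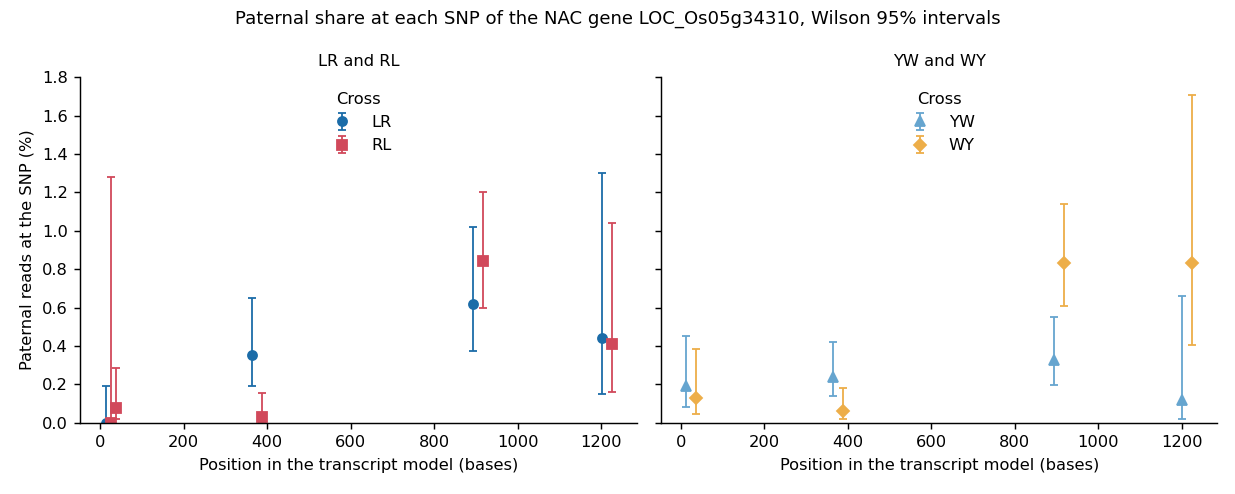
Paternal reads as a percentage of reads at each SNP of the NAC gene LOC_Os05g34310 against position in the transcript model, for LR and RL (left) and YW and WY (right), with Wilson 95% intervals, for SNPs with at least 40 reads in the cross. The SNP at position 905 reaches 0.845% in RL and 0.833% in WY, while at position 376 LR and YW lie above RL and WY.

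The fifth SNP of the NAC gene, C20310229T, appears only in LR-RL, where it belongs to the 2057 SNPs listed with the Rongfeng allele as reference. The other 60045 SNPs of that table have the Liuqianxin allele as reference. It had 26 reads in LR and 297 in RL, all maternal, which allows paternal shares of up to 11.5% and 1.01%, although it lies 11 bases from G20310218A with its 2005 and 2553 reads. Counts at neighbouring SNPs of the same transcript therefore differed by far more than counting error. Without it the gene had 7932 reads in LR and 10802 in RL. At the zinc finger gene both paternal reads of RL fell on G13783251C, transcript position 33, with 2 of 48 reads (4.17%, 1.15 to 14). T13783316C and T13783342C had 0 of 94 and 0 of 99 paternal reads in RL, which allows up to 3.19% and 3.03%.

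Total reads of both alleles were not used to choose the genes, and they differed between the crosses of a set. As reads per 1000000, taken over all allele reads of the cross, the bZIP gene had 192 in LR and 96.8 in RL, and 183 in YW and 120 in WY, the larger value of each set being that of the japonica mother. The tested green pericarp loci, listed above as markers of maternal tissue, moved the same way. Their own maternal shares were 46.7% to 61.3% in LR and 50.3% to 70.2% in YW, where the median tested locus had 67.1% and 75.1%. Their summed level was 108 reads per 1000000 in LR and 42.7 in RL over 2 loci, and 180 in YW and 79.7 in WY over 3 loci, and their part in the level of the bZIP gene was not tested. Because nearly all of its reads were maternal, these totals follow the maternal allele: 192 reads per 1000000 from the mother in LR against 96.7 in RL, and 182 in YW against 120 in WY. The log2 ratio was 0.99 for LR over RL (counting interval 0.93 to 1.05) and 0.60 for YW over WY (between 0.54 and 0.66). The median tested locus itself had a ratio of 0.24 between LR and RL and 0.44 between YW and WY, with quartiles of -0.23 to 0.77 and -0.02 to 0.89. Relative to that median the bZIP gene was 0.75 higher in LR than RL and 0.16 higher in YW than WY, and 82% and 60.1% of tested loci had a lower ratio. In LR-RL the gene thus lay above the upper quartile of loci, and in YW-WY within the middle range.

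Along the bZIP transcript the ratio was not constant. In LR over RL it was 1.31 to 1.48 on the log2 scale at the last 4 SNPs, from transcript position 1179 to 1266, and 1.42 at position 219, and it was lowest at position 570 with 0.20. The same position was lowest in YW over WY, with 0.04, where the highest value was 1.06 at position 18. All 18 SNPs had more reads per 1000000 in LR than in RL, and all 18 more in YW than in WY. Relative to the median locus of the set, 17 of 18 lay above it in LR-RL and 16 of 18 in YW-WY. At position 1179, C5539676T, there were 531 reads in LR and 226 in RL, and at position 570, T5544902C, 212 in LR and 214 in RL. The size of the difference in LR-RL therefore rested on which SNPs were summed. Only the SNP at position 570 lay below the median locus in LR-RL, at 0.20 against 0.24.

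The NAC gene had 268 reads per 1000000 in LR and 322 in RL, and 437 in YW and 430 in WY. Its log2 ratio was -0.27 for LR over RL (-0.31 to -0.23) and 0.02 for YW over WY (-0.01 to 0.06). Relative to the median locus it was lower in both japonica-mother crosses, at -0.51 for LR over RL and -0.42 for YW over WY, with 23.5% and 26.5% of loci having a lower ratio. Leaving out C20310229T gave -0.23 for LR over RL. The level in both Yu6-Wufeng crosses exceeded that in both Liuqianxin-Rongfeng crosses, but the tables of the sets list different SNPs and were not scaled to each other.

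The zinc finger gene had 2.79 reads per 1000000 in LR and 7 in RL, and 5.11 in YW and 5.43 in WY. The log2 ratio was -1.33 for LR over RL (-1.70 to -0.96) and -0.09 for YW over WY (-0.42 to 0.25). Relative to the median locus it was -1.57 in LR-RL and -0.53 in YW-WY, and 2.42% and 21.8% of loci had a lower ratio. All 3 of its SNPs had fewer reads per 1000000 in LR than in RL, with 16 reads in LR and 48 in RL at position 33, 30 in LR and 94 in RL at position 98, and 37 in LR and 99 in RL at position 124. The Yu6-Wufeng crosses had 35 reads in YW and 30 in WY at position 33, 56 in YW and 62 in WY at position 98, and 58 in YW and 67 in WY at position 124. LR was therefore the low cross at every SNP. Storage protein reads, which enter the total, also differed between LR and RL (10.3% and 22.9%), and their part in the ratios was not tested. In bulk tissue, fewer cells that express a gene and less RNA per cell cannot be told apart.

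Total reads were also fitted over the 9753 loci tested in both sets, with edgeR's quasi-likelihood test, terms for set and direction of cross, and TMM scaling. The sets stand in for replicates and leave 1 residual degree of freedom, so the spread is pooled over loci. None of the 3 genes passed an adjusted p of 0.05, a threshold that 1.24% of loci passed as higher and 0.841% as lower with the japonica mother. The log2 difference, japonica over indica mother, was 0.48 at the bZIP gene (edgeR adjusted p = 0.499). It was -0.44 at the NAC gene (edgeR adjusted p = 0.583) and -1.01 at the zinc finger gene (edgeR adjusted p = 0.2). Without adjustment the same threshold was passed by the zinc finger gene alone among the 3, and by 19.1% of all loci.

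**Figure D3:**
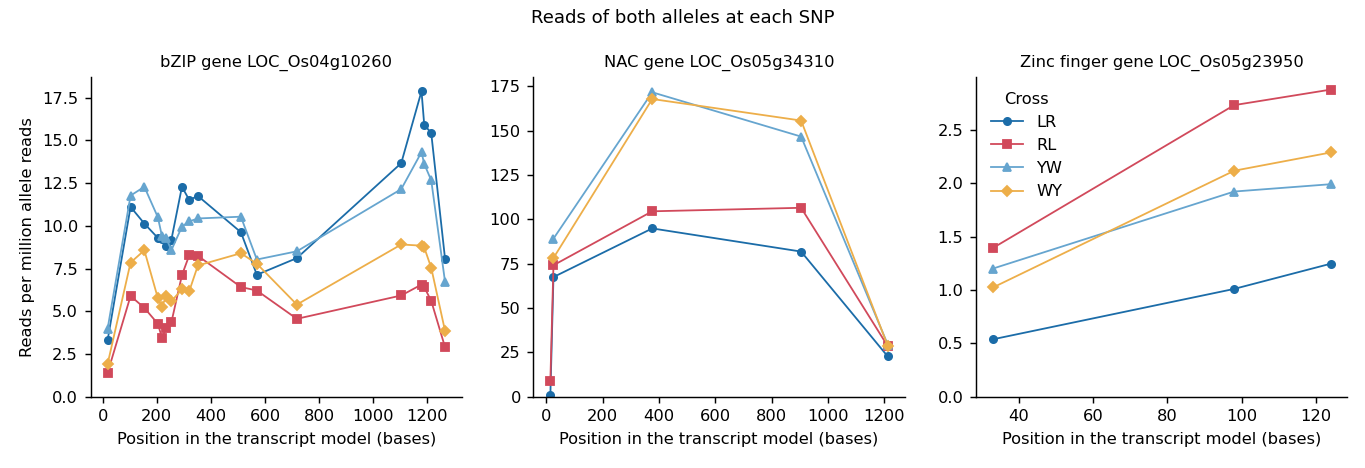
Reads per 1000000 of both alleles together at each SNP against position in the transcript model, for the bZIP, NAC and zinc finger genes in LR, RL, YW and WY. The japonica-mother crosses LR and YW lie above RL and WY along nearly the whole bZIP transcript, YW and WY lie above LR and RL at the middle of the NAC transcript, and LR is lowest at all 3 SNPs of the zinc finger gene.

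The mean number of reads per SNP, a measure that does not depend on transcript length, placed the genes far apart in level. The NAC gene had 1592 reads per SNP in LR and 2220 in RL, then 3183 in YW and 3153 in WY, more than 95% to 98.0% of tested loci. The bZIP gene had 318 in LR and 185 in RL, then 296 in YW and 196 in WY, and 68% to 78.6% of loci had fewer. The zinc finger gene had 27.7 in LR and 80.3 in RL, then 49.7 in YW and 53 in WY, with 11.9% to 45.1% of loci lower. The median tested locus had 98 in LR and 94 in RL, then 104 in YW and 71 in WY. In every cross the order was NAC, bZIP, zinc finger.

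The families to which the genes belong were taken from the annotation text. Apart from the chosen genes they hold loci that were not chosen by their shares. Counts of strongly maternal loci below include the chosen gene of the family. Among bZIP loci, 27 were tested in LR-RL and 30 in YW-WY, and LOC_Os04g10260 was the only strongly maternal locus in either set. No bZIP locus was strongly paternal, where 1.63% of all tested loci were in LR-RL, 0.612% in YW-WY and 0.615% in both. For strong maternal calls the rate over all tested loci was 0.847% (LR-RL) and 0.97% (YW-WY). With so few bZIP loci, the lack of other strong calls is close to these background rates. It is not a result about the family. The other bZIP loci had a median maternal share of 68.9% in LR and 64.5% in RL, and of 78.4% in YW and 61% in WY, against the medians over all tested loci given above. At an adjusted p under 0.05 of any size, a rule that called 2.02% of loci maternal in LR-RL and 5.94% in YW-WY, each set had 1 other maternal bZIP locus. These were LOC_Os01g64000 in LR-RL, with 85.4% in LR and 77.1% in RL, and LOC_Os07g44950 in YW-WY, with 73% in YW and 68.8% in WY; both were named after their values were seen. RISBZ1 (LOC_Os07g08420), an activator of storage protein genes, had 62.3% in LR and 65.7% in RL, and 77.9% in YW and 66.5% in WY, with no call. RISBZ2 (LOC_Os03g58250) had 60.8% in LR and 57.5% in RL, with 73.5% in YW and 59.1% in WY, and a paternal call in LR-RL by the rule without a minimum size, which called 6.75% of loci paternal there and 3.64% in YW-WY.

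A second locus carries the annotation words of the bZIP gene. LOC_Os09g34880, tested in YW-WY only, had 1845 maternal and 3 paternal reads in YW but 2 maternal and 728 paternal reads in WY. Its reads thus came from the japonica allele in both directions (99.8% maternal in YW and 0.274% in WY), unlike those of LOC_Os04g10260, which changed allele with the mother. This was not particular to LOC_Os09g34880. Of zinc finger loci on chromosome 9, named after their values were seen, LOC_Os09g33450 had 99.1% in YW and 0.434% in WY. LOC_Os09g33670 had 99.6% and 0.389%, while LOC_Os09g36500 had 72.5% and 69.1%. The cause of this pattern was not tested. The only other locus annotated with a TRAF-type zinc finger, LOC_Os12g08070, had 11 reads in YW and 11 in WY and was not tested.

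The NAC family held strongly called loci of both parental kinds. Of 27 NAC loci tested in LR-RL, LOC_Os05g34310 was the only strongly maternal locus and 4 (14.8%) were strongly paternal, where all tested loci gave 0.847% and 1.63%. Of 28 in YW-WY, again only LOC_Os05g34310 was strongly maternal, and 2 (7.14%) were strongly paternal, where all tested loci gave 0.97% and 0.612%. The paternal loci are neighbours on chromosome 11. LOC_Os11g31340 and LOC_Os11g31360 were called in both sets, while LOC_Os11g31330 and LOC_Os11g31380, named after their values were seen, were called strongly in LR-RL only. In YW-WY both were called paternal by the rule without a minimum size, which called 3.64% of loci paternal there. Their maternal shares were 34.1% and 57.8% in YW, but 1.49% and 0.384% in WY. Maternal shares at LOC_Os11g31360 were 0.0901% in LR and 3.62% in RL, then 1.43% in YW and 1.74% in WY. ONAC020 (LOC_Os01g01470), which promotes storage protein genes in rice endosperm, had 80.4% in LR and 98.7% in RL and was called maternal there only by the rule without a minimum size. It had no SNP in YW-WY, so nothing is known of it in that set. The other NAC loci had medians of 68.3% in LR and 61.6% in RL, and of 77.6% in YW and 61.5% in WY. Of ONAC026 (LOC_Os01g29840) no SNP was in these tables.

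Zinc finger annotation covers many unlike proteins, and 275 such loci were tested in LR-RL and 297 in YW-WY. Strongly maternal loci numbered 4 in each set, or 1.45% and 1.35%, where all tested loci gave 0.847% and 0.97%. In each set the 4 include LOC_Os05g23950, chosen for its share, so these maternal rates are no independent result about the family. Strongly paternal loci numbered 8 and 1, or 2.91% and 0.337%, where all tested loci gave 1.63% and 0.612%. Of the 8, named after their values were seen, LOC_Os01g07930, LOC_Os01g69040, LOC_Os03g24900 and LOC_Os12g07120 were called paternal in YW-WY without a minimum size. Their maternal shares were 37.6%, 36.8%, 33.1% and 29% in YW, and 29.6%, 4.36%, 3.57% and 8.65% in WY. LOC_Os02g36360 had no call there, and LOC_Os05g41790 and LOC_Os05g48970 had no SNP in that set. Maternal in both sets were LOC_Os05g23950, LOC_Os10g41660 and LOC_Os12g40790. LOC_Os10g41660, of the C3HC4 type found in many ubiquitin ligases, had 98.3% in LR and 93.5% in RL, and no paternal read of 83 in YW or of 139 in WY, which allows paternal shares of up to 3.61% and 2.16%. LOC_Os12g40790 had 93.7% in LR and 99.8% in RL, and 93.6% in YW and 95.7% in WY. LOC_Os04g22240, also of the C3HC4 type, was the only zinc finger locus strongly paternal in both sets, with 4.16%, 1.78%, 27.6% and 2.01% maternal reads in LR, RL, YW and WY.

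**Figure D4:**
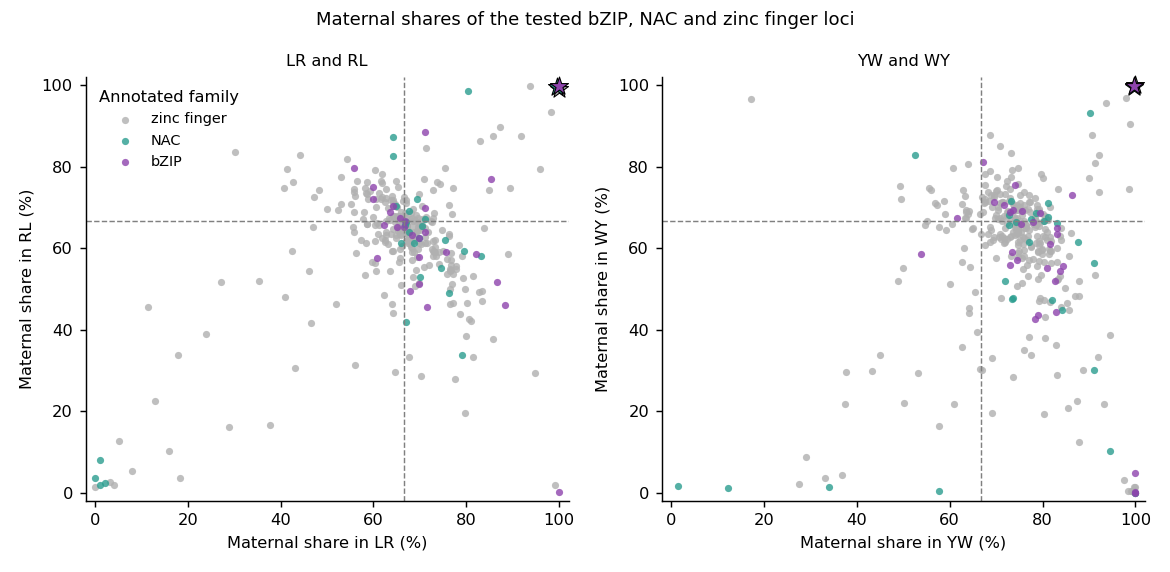
Maternal share in the japonica-mother cross (x axis, %) against the indica-mother cross (y axis, %) for tested loci annotated as bZIP, NAC or zinc finger, with LR and RL on the left and YW and WY on the right. Stars are the 3 genes, which overlap near 100% on both axes, and dashed lines mark 66.7%. The paternal NAC loci of chromosome 11 lie at the lower left in LR and RL but reach 57.8% in YW, and most other loci lie near the dashed lines.

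The loci nearest to the genes on the chromosome were examined for the same calls. Taking the 3 nearest tested loci on each side, 18 neighbours were examined per set and 20 in all, and none was strongly maternal in either set. At an adjusted p under 0.05 of any size 1 neighbour was called maternal and 2 paternal in LR-RL, where 2.02% and 6.75% of all loci were, and 2 maternal and 1 paternal in YW-WY, where 5.94% and 3.64% were. Strong maternal calls were made at 0.847% and 0.97% of all loci, so their absence among 18 neighbours is close to the background and is not a result about the neighbours. Around the bZIP gene, the nearest locus, LOC_Os04g10240 (9.3 kb away), had 65.9% in LR and 70.1% in RL, and 75.2% in YW and 66% in WY. The next, LOC_Os04g10214 (17.1 kb), followed the strain, with 99.9% in LR and 0.699% in RL, and 99.8% in YW and 0.614% in WY. A gene read from the mother thus lay 17.1 kb from a locus read from the japonica allele. LOC_Os04g10420 (111 kb) had a paternal call without a minimum size in LR-RL, with 44.8% in LR and 54.2% in RL.

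Around the NAC gene the 2 flanking loci lay 4.19 kb and 5.5 kb away. LOC_Os05g34290, for an enzyme of phytochelatin synthesis by its annotation, had 68.9% in LR and 55.9% in RL, and 90.5% in YW and 43.3% in WY. LOC_Os05g34320, a beta-hexosaminidase gene, had 66.4% in LR and 64.5% in RL, with 77.9% in YW and 66.4% in WY. Neither had a call in either set. LOC_Os05g34480 had a maternal call in YW-WY, with 86.1% in YW and 75% in WY. It had 69.9% in LR and 73.4% in RL.

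The zinc finger gene had both a maternal and a paternal locus among the nearest 2 on each side. LOC_Os05g23910, annotated as a histone-like transcription factor, lies 32.5 kb away on the side of lower coordinates. Maternal reads made up 98.2% in LR (between 97.7 and 98.6) and 75.6% in RL (between 74.6 and 76.5), and 98.9% in YW (between 98.6 and 99.1) and 76.7% in WY (between 75.6 and 77.8). It was called maternal in both sets but not strongly, since the indica-mother crosses lay closer to 2:1. On the other side at 40.2 kb, LOC_Os05g24000, an expressed protein, was strongly paternal in both sets. In LR 0 of 166 reads were maternal, which allows up to 1.81%, and in RL 9 of 179. The maternal reads were 13 of 76 in YW and 2 of 55 in WY. Between the zinc finger gene and LOC_Os05g23910 lies LOC_Os05g23940, a transcription initiation factor IIB gene 1.65 kb away, which had no call (56.2% in LR and 45.9% in RL, then 69.7% in YW and 70.2% in WY).

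In a joint edgeR quasi-likelihood fit of the 4 crosses, the log2 departure from 2:1 was 2.90 at LOC_Os05g23910 (adjusted p = 9.73e-33) and -5.96 at LOC_Os05g24000 (adjusted p = 8.61e-42). At each locus 4 of 4 crosses lay on that side of 2:1. LOC_Os05g34480 had 0.71 (edgeR adjusted p = 0.0499), just past the threshold, and LOC_Os04g10420, called paternal in LR-RL above, had -0.69 and was not called (edgeR adjusted p = 0.206). That fit called 2.53% of 9753 loci maternal and 6.73% paternal. It takes the 2 cross sets as replicates, with 1 residual degree of freedom, and its spread is pooled over loci.

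**Figure D5:**
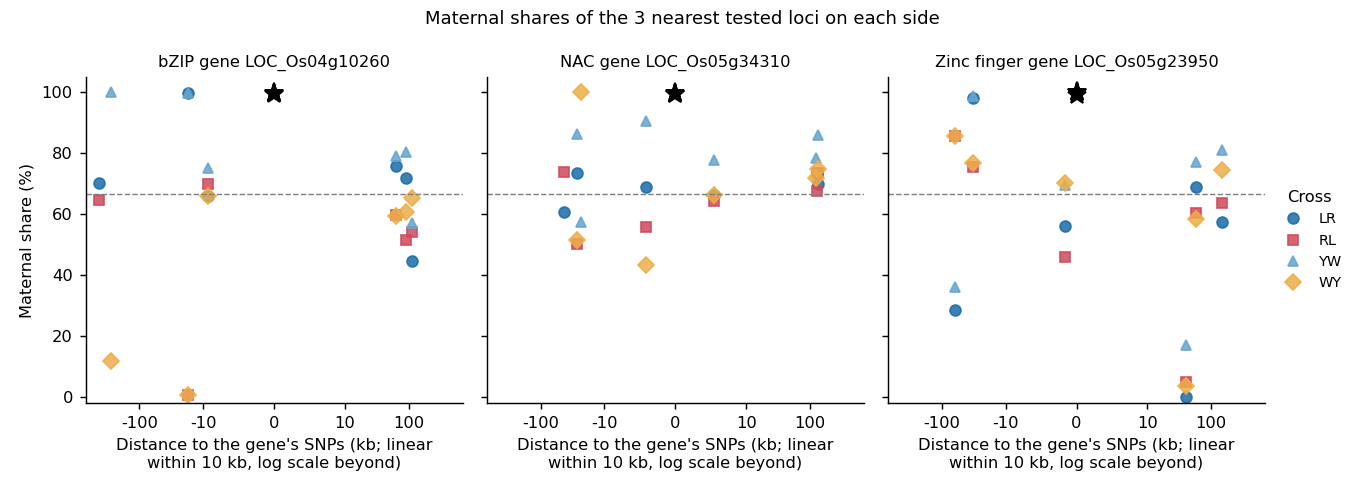
Maternal share (%) in LR, RL, YW and WY of the 3 nearest tested loci on each side of each gene, against the distance in kb between SNPs (linear within 10 kb, log scale beyond). The gene itself is the black star at 0, and the dashed line marks 66.7%. Neighbours of the bZIP and NAC genes scatter around the line or follow the strain, while the zinc finger gene has LOC_Os05g23910 above the line in all 4 crosses and LOC_Os05g24000 near 0% to 17.1%.

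The loci most like each gene were found by the distance between log2 ratios of maternal to paternal reads in the 4 crosses, over the 9753 loci tested in both sets. This likeness uses the measure that chose the genes and is a description. Where a cross had no paternal read, the log2 ratio was set by its depth and the pseudocount of 0.5. A small distance can then reflect depth alone. Nearest to the bZIP gene (log2 departures of 8.78, 8.89, 6.88 and 8.98 in LR, RL, YW and WY) were the lipid transfer protein gene LTPL162 (LOC_Os11g40530) at a distance of 1.11 and LOC_Os02g28580 at 1.24. LOC_Os06g30280, the Bet v I family gene LOC_Os04g39150 and the cupin gene LOC_Os08g08960 followed at 2.14, 2.15 and 2.2. LTPL162 had 9.12, 8.59, 7.22 and 8.02 in the same order of crosses. Like the bZIP gene, all 5 of these loci were lowest in YW. They were picked for closeness to the values of the bZIP gene, so a low YW value is part of that choice. LOC_Os02g28580 had no paternal read in WY, LOC_Os06g30280 none in LR, and LOC_Os04g39150 none in LR or RL. Nearest to the NAC gene were the Pong-type transposon locus LOC_Os02g26740 at 0.53, the peroxidase gene LOC_Os11g10460 at 0.73, LOC_Os08g28960 at 0.78 and the F-box genes OsFBX420 (LOC_Os11g15620) and OsFBX270 (LOC_Os08g09700) at 1.02 and 1.33. Of these, LOC_Os02g26740 had no paternal read in any cross, and LOC_Os11g10460 and OsFBX420 had 1 each, both in YW. LOC_Os08g28960 had none with either indica mother, and only OsFBX270 had paternal reads in every cross. Nearest to the zinc finger gene were LOC_Os02g26740 at 1.44, LOC_Os02g43440 at 1.52, LOC_Os08g13210 at 1.55, LOC_Os11g10460 at 1.68 and LOC_Os01g13180 at 1.75. Here LOC_Os08g13210 had no paternal read in any cross and LOC_Os02g43440 had 1, in YW. Only LOC_Os01g13180 had paternal reads in every cross. The distance between the NAC and zinc finger genes was 1.83, while the bZIP gene was 3.23 from the NAC gene and 4.43 from the zinc finger gene. The zinc finger gene had paternal reads in RL only, so its distances from other loci also depend on its depth.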

How the data were processed

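The authors deposited whole-number counts of reads with the maternal and the paternal allele at each SNP, with 1 column pair per cross in the file headers, so replicates are pooled. GATK 3.5, Bowtie2 2.2.1, Trimmomatic 0.32 and SAMtools 0.1.16 are listed in the submitters' processing notes, with no order, and no source used here names the genome build. Every listed SNP has at least 11 reads in each cross, which limits the loci that can be seen.

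Counts were summed per locus (Python 3.11.15, pandas 2.3.3, SciPy 1.17.1). Calls used an exact two-sided binomial test per cross against 2:1, the larger p of a set and Benjamini-Hochberg adjustment over all tested loci. They compare pooled libraries, cover counting error only, and let a read count at several SNPs. A joint fit of allele counts used edgeR 4.0.16 in R 4.3.3, with a strain term per set, and a fit of total reads, chosen after seeing the data, used terms for set and direction. Calls were tested on simulated data. Limits for a count of 0 use 3 counts, and intervals are 95% (Wilson for shares, exact Clopper-Pearson for ratios of reads).

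The members and lists were chosen with earlier results of these data known. Named loci are the members, 3 tested neighbours on each side, family loci strong in both sets, the 5 nearest loci in allele ratios, and 4 fixed seed factors. Others are named as chosen after their values were seen, or as family or marker loci. Alternatives were the SNP with most counts, its removal, a minimum of 20 reads per SNP, the median ratio as null, other pseudocounts, scalings and filters.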

Additional observations from a re-analysis of the deposited data

Results flagged for a closer look

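The log2 ratio of total reads of the NAC gene LOC_Os05g34310 had opposite signs in the cross sets, at -0.27 for LR over RL and 0.02 for YW over WY. With 1 pooled value per cross the difference between the sets was not tested. Relative to the median locus of each set both ratios were negative.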

How the results depend on the processing

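Of 132 recomputed values, 90 stayed within the counting interval or within 1.5 times the count, and the lowest maternal share of a member under these alternatives was 98.6%, at the zinc finger gene in RL without the SNP with the most counts. With only the SNP with the most counts, the share of the bZIP gene was 100% in LR and RL, 99.8% in YW and 100% in WY, that of the NAC gene 99.97% in RL and 99.9% in WY, and that of the zinc finger gene 100% in RL. Without that SNP the NAC gene had 99.5% in RL and 99.4% in WY. With SNPs of at least 20 reads in each cross, the zinc finger gene had 100% in RL. Against the median ratio, log2 departures in YW were 6.30 (bZIP) and 7.03 (NAC).

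The log2 ratios of total reads moved with the scaling, by 0.24 in LR-RL and 0.44 in YW-WY at the median locus. With TMM factors and with median-of-ratios size factors the bZIP gene had 0.75 and 0.75 (LR over RL) and 0.18 and 0.16 (YW over WY), and the NAC gene -0.51 and -0.51, and -0.40 and -0.42. The zinc finger gene had -0.51 and -0.53 in YW over WY. With only the SNP with the most counts the bZIP gene had 1.45 and 0.69, and the NAC gene -0.14 in LR over RL.

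With an adjusted p under 0.05 and no minimum size (2.02% of all loci maternal and 6.75% paternal in LR-RL, 5.94% and 3.64% in YW-WY), maternal and paternal bZIP loci numbered 2 and 1 in LR-RL, with 2 maternal in YW-WY. Maternal NAC loci then numbered 2 in LR-RL, with 4 maternal and 4 paternal in YW-WY. Zinc finger loci numbered 13 maternal and 26 paternal of 275 in LR-RL, and 22 and 15 of 297 in YW-WY. These maternal counts include the chosen gene of each family. Strong paternal zinc finger loci of YW-WY numbered 4 against the median ratio and 2 without the count filter. The joint edgeR fit (2.53% of all loci maternal and 6.73% paternal) called 2 of 26 bZIP loci maternal, 2 of 25 NAC loci maternal and 4 paternal, and 11 of 262 zinc finger loci maternal and 24 paternal. The cause of these changes was not tested, apart from the looser rule itself. No paired analysis was possible because the deposited columns pool the replicates of a cross. For the same reason no replicate could be left out. Depth limits the zinc finger gene most, with 83 reads in LR.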
